A study of Homo sapiens with 18 samples.

Results

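Aminoacyl-tRNA synthetases are the enzymes that join each amino acid to its tRNA before translation. The 38 genes described here were taken by symbol from the gene table, in which 60623 genes are listed, and comprise 19 cytosolic enzymes, 16 mitochondrial enzymes (symbols that end in 2) and the 3 subunits AIMP1, AIMP2 and EEF1E1, which have no synthetase activity and hold the multi-synthetase complex together. All 38 were among the 16414 genes that passed the filter on low counts. RNA was sequenced from HEK-293E cells, a line derived from human embryonic kidney, in 18 libraries. The 6 groups had 3 libraries each: cells starved overnight in medium with 0.1% serum and given Torin1, starved cells without it, cells fed for 1 h or for 4 h with Torin1, and cells fed for 1 h or for 4 h without it, where feeding was a return to growth medium with 10% serum. Starvation preceded feeding in every fed group, a single cell line was used, and the sources used here state neither how much Torin1 was given nor for how long. Whether the replicates came from separate cultures is not stated either, and the p-values then cover the spread among these libraries, which may be technical.

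Each cytosolic synthetase serves translation on cytosolic ribosomes, and most amino acids have a separate nuclear gene for the enzyme imported into mitochondria. GARS1 and KARS1 make both enzymes from a single gene, and EPRS1 carries the activities for glutamate and proline. Torin1 blocks the kinase mTOR in both of its complexes. mTOR complex 1 senses amino acids and growth factors and raises the activity of ATF4, a transcription factor that is known to bind the promoters of amino acid synthesis, amino acid transport and cytosolic synthetase genes at a composite element shared with C/EBP factors.

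Library totals ranged from 10510689 to 13690035 counts, and levels are given as CPM, which are counts divided by the scaled library total and thus a share of the RNA in a library: RNA per cell and the number of cells cannot be told apart. The HEK293 marker VIM was at 494 to 1421 CPM and NEFM at 52 to 172 CPM, whereas the leukocyte gene PTPRC did not exceed 0.238 CPM. The 6 HEK293 markers summed to between 1329 and 1645 CPM in the libraries with Torin1, against 704 to 981 CPM in those without it, and the 5 fibroblast markers to between 15.4 and 39.2 CPM with Torin1 and between 7.94 and 42.2 CPM without it. The part of these shifts in the results was not tested.

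With Torin1, most cytosolic enzyme genes fell and more mitochondrial enzyme genes rose than fell, in each of the 3 feeding states. In starved cells 13 of the 19 cytosolic genes fell and 5 rose (adjusted p under 0.05 in edgeR's quasi-likelihood test), with a median log2 fold change of -0.54, while 9 of the 16 mitochondrial genes rose and 5 fell, with a median of 0.40. The median over all genes tested was 0.09, and 33.9% of them rose and 29.6% fell. In cells fed for 1 h, 13 cytosolic genes fell and 4 rose (median -0.45), and 10 mitochondrial genes rose and 5 fell (median 0.39), where 33.2% of all genes rose, 29.9% fell and the median of all genes was 0.06. In cells fed for 4 h, 14 cytosolic genes fell and 1 rose (median -0.72), and 7 mitochondrial genes rose and 5 fell (median 0.16), where 27.4% of all genes rose, 28.6% fell and the median was 0.02. The 38 genes taken as one set therefore lay nearer to the background in the higher direction, with 15 genes higher and 20 lower in starved and in 1 h fed cells and 9 higher and 21 lower in 4 h fed cells.

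Most genes changed in one direction in all 3 states. Those lower in all 3 states were 13 cytosolic enzymes (CARS1, EPRS1, FARSA, GARS1, HARS1, IARS1, KARS1, LARS1, NARS1, RARS1, SARS1, TARS1 and YARS1), 4 mitochondrial enzymes (EARS2, MARS2, RARS2 and YARS2) and the subunits AIMP2 and EEF1E1, 19 genes in all, against 19.6% of all genes tested. Those higher in all 3 states were the cytosolic QARS1, the mitochondrial AARS2, CARS2, FARS2, IARS2, TARS2 and VARS2 and the subunit AIMP1, 8 genes in all, against 18.8% of all genes tested. The remaining 11 genes were not called in every state or changed direction between states.

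**Figure D1:**
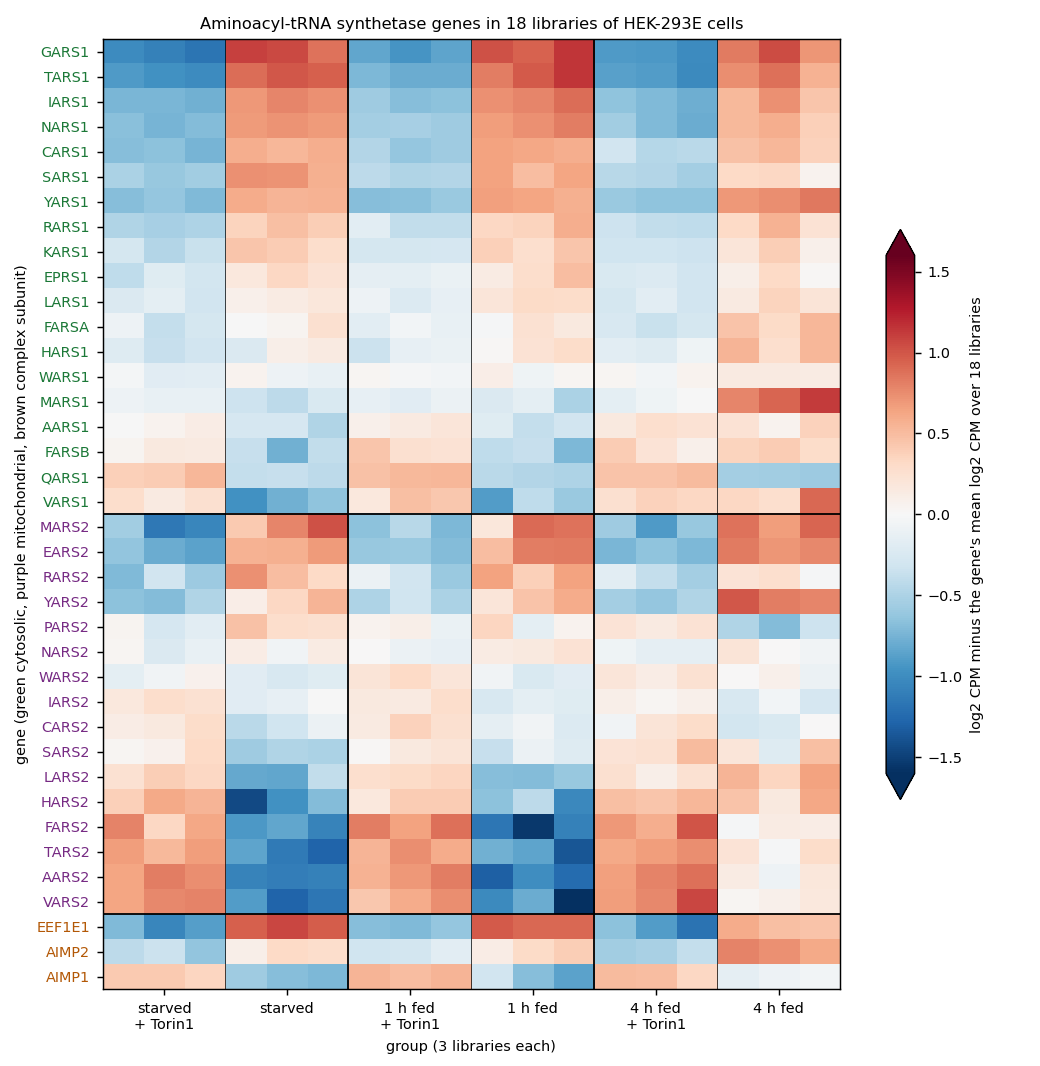
Level of each of the 38 genes (rows, grouped as cytosolic enzymes, mitochondrial enzymes and complex subunits) in the 18 libraries (columns, 3 per group), as log2 CPM minus the gene's mean log2 CPM over the 18 libraries. The upper cytosolic rows such as GARS1 and TARS1 are low (blue) in all Torin1 libraries, and the lower mitochondrial rows such as TARS2 and VARS2 are high (red) there and low in starved and 1 h fed cells without Torin1.

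Among the cytosolic enzymes, GARS1, which charges glycine in both compartments, had the lowest fold change in each state. In starved cells its level was 109, 103 and 97.7 CPM with Torin1, against 468, 454 and 398 CPM without it. After 4 h of feeding it was 117, 116 and 109 CPM with Torin1, against 388, 451 and 357 CPM without it. The groups did not overlap in any state, and the log2 fold changes were -2.09 ± 0.09 (SE, adjusted p = 3.07e-18) in starved, -1.91 ± 0.09 in 1 h fed and -1.81 ± 0.09 in 4 h fed cells.

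TARS1, the threonine enzyme, was next, with 174, 166 and 163 CPM in starved cells with Torin1, against 607, 652 and 634 CPM in those without it. Its log2 fold change was -1.91 ± 0.09 in starved (adjusted p = 1.49e-17), -1.76 ± 0.08 in 1 h fed and -1.66 ± 0.08 in 4 h fed cells. IARS1, the isoleucine enzyme and a member of the multi-synthetase complex, had 257, 256 and 249 CPM in starved cells with Torin1, against 688, 731 and 704 CPM without it, a log2 fold change of -1.48 ± 0.08. All Torin1 libraries of both genes lay below all libraries without Torin1.

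YARS1, the tyrosine enzyme, was among the genes with the largest fold changes after 4 h of feeding. It had 163, 157 and 157 CPM in 4 h fed cells with Torin1, against 399, 411 and 441 CPM without it, a log2 fold change of -1.39 ± 0.07 (adjusted p = 4.84e-16). NARS1 (asparagine), SARS1 (serine), CARS1 (cysteine) and RARS1 (arginine) fell by between 0.91 and 1.40 on the log2 scale in starved cells. KARS1, the lysine enzyme of both compartments, fell less: it had 197, 172 and 186 CPM in starved cells with Torin1, against 325, 317 and 290 CPM without it, a log2 fold change of -0.75 ± 0.08. EPRS1, LARS1 (leucine), FARSA (phenylalanine, alpha subunit) and HARS1 (histidine) had log2 fold changes between -0.54 and -0.30 there. The HARS1 call in starved cells rested on groups that overlapped, and its adjusted p was 0.057 without starved replicate 2 and 0.0747 without starved replicate 3. The FARSA call in 1 h fed cells (-0.25 ± 0.09) was lost without 1 h fed replicate 2 (adjusted p = 0.0969) or 1 h fed Torin1 replicate 1 (adjusted p = 0.068).

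QARS1, the glutamine enzyme of the multi-synthetase complex, was the one cytosolic gene that rose in all 3 states. It had 375, 381 and 413 CPM in starved cells with Torin1, against 221, 222 and 215 CPM without it. After 4 h of feeding it had 393, 393 and 408 CPM with Torin1, against 196, 195 and 191 CPM without it. The log2 fold changes were 0.83 ± 0.07 in starved cells, 0.97 ± 0.07 after 1 h and 1.04 ± 0.07 after 4 h of feeding, and the last had an adjusted p of 1.02e-13.

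MARS1 (methionine), AARS1 (alanine), FARSB (phenylalanine, beta subunit) and VARS1 (valine) took different values in different states. VARS1 had 109, 99.1 and 107 CPM in starved cells with Torin1, against 45.8, 52.7 and 57.6 CPM without it, a log2 fold change of 1.01 ± 0.15, but in 4 h fed cells the groups overlapped, at 107, 116 and 113 CPM with Torin1 against 113, 108 and 170 CPM without it. MARS1 had 106, 113 and 118 CPM in 4 h fed cells with Torin1, against 204, 225 and 257 CPM without it, and fell by 1.03 on the log2 scale (SE 0.09, adjusted p = 5.93e-11). In starved cells MARS1 had 112, 109 and 109 CPM with Torin1, against 93.9, 88.7 and 99.8 CPM without it. The log2 fold change was 0.22 ± 0.09. This call was lost without starved replicate 1 or 2 or any single one of the starved Torin1 replicates (adjusted p between 0.0553 and 0.136). WARS1, the tryptophan enzyme, was not called in any comparison, and its log2 fold changes with Torin1 were -0.08 in starved, -0.03 in 1 h fed and -0.12 in 4 h fed cells. FARSA and FARSB encode the subunits of a single enzyme and had unlike values, a log2 fold change of -0.34 ± 0.09 for FARSA and 0.61 ± 0.11 for FARSB in starved cells.

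**Figure D2:**
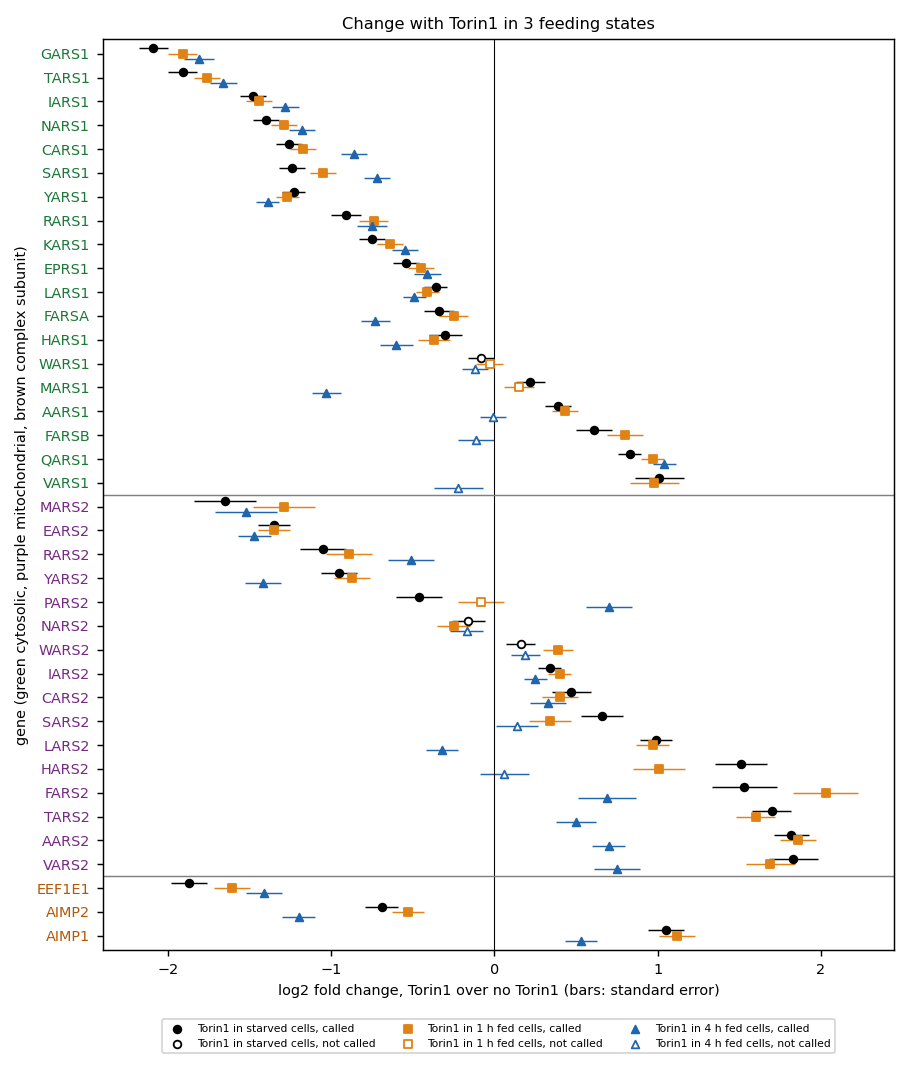
Log2 fold change of each gene with Torin1 (horizontal axis, Torin1 over no Torin1, bars show the standard error) in starved cells and after 1 h and 4 h of feeding; filled symbols passed an adjusted p under 0.05. GARS1 lies at -2.09 to -1.81 and QARS1 at 0.83 to 1.04, while the triangles of 4 h fed cells lie nearer to 0 than the other symbols for TARS2, AARS2 and VARS2.

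Of the 10 genes that belong to the multi-synthetase complex (EPRS1, IARS1, KARS1, LARS1, MARS1, QARS1, RARS1 and the 3 subunits), 7 fell and 3 rose in starved cells, 7 fell and 2 rose in 1 h fed cells, and 8 fell and 2 rose in 4 h fed cells. Over all genes tested, 29.6%, 29.9% and 28.6% fell in these states in that order, and 33.9%, 33.2% and 27.4% rose. The counts of the complex that rose were under the share over all genes. The subunits moved in unlike directions. EEF1E1, which also carries the name AIMP3, had 30.8, 24.4 and 27.4 CPM in starved cells with Torin1, against 98.3, 106 and 98.9 CPM without it, a log2 fold change of -1.87 ± 0.11 (adjusted p = 2.35e-15). AIMP2, the scaffold to which several synthetases attach, had 39.8, 40.8 and 45.0 CPM in 4 h fed cells with Torin1, against 101, 97.1 and 89.3 CPM without it, a log2 fold change of -1.20 ± 0.10. AIMP1, which binds tRNA and whose processed form is secreted as a cytokine, had 62.7, 62.7 and 59.3 CPM in starved cells with Torin1, against 31.6, 29.2 and 28.5 CPM without it, a log2 fold change of 1.05 ± 0.11 (adjusted p = 5.95e-10). None of these 3 genes had overlapping groups in any of the Torin1 comparisons.

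By the fold of their catalytic domain, 3 of the 9 cytosolic class I enzymes rose and 5 fell with Torin1 in starved cells (median log2 fold change -0.36), 2 rose and 5 fell after 1 h (-0.41), and 1 rose and 6 fell after 4 h of feeding (-0.75). Of the 9 class II genes, 2 rose and 7 fell in starved cells (-0.75), and 2 rose and 7 fell after 1 h (-0.64). After 4 h, 0 rose and 7 fell (-0.72). FARSA and FARSB, the subunits of a single enzyme, were counted separately here. FARSB was among the genes that rose in starved and in 1 h fed cells. EPRS1, which carries a catalytic domain of each class, was left out. The share of all genes that fell was between 28.6% and 29.9%. The classes were not tested against each other.

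In starved and in 1 h fed cells, the mitochondrial enzymes that rose most with Torin1 were VARS2, AARS2, TARS2, FARS2 and HARS2, which charge valine, alanine, threonine, phenylalanine and histidine. VARS2 had 71.6, 78.8 and 80.2 CPM in starved cells with Torin1, against 25.0, 19.1 and 20.9 CPM without it. AARS2 had 62.2, 70.7 and 67.4 CPM there with Torin1, against 19.1, 18.6 and 18.9 CPM without it, and TARS2 had 92.6, 84.0 and 92.7 CPM with Torin1, against 32.4, 26.7 and 24.1 CPM without it. For all 3 genes every Torin1 library lay above every library without Torin1, and the log2 fold changes were 1.83 ± 0.15, 1.82 ± 0.11 and 1.70 ± 0.12 in the order VARS2, AARS2 and TARS2. In 4 h fed cells the values were smaller, at 0.75 ± 0.14 for VARS2, 0.70 ± 0.10 for AARS2, 0.69 ± 0.18 for FARS2 and 0.50 ± 0.12 for TARS2. HARS2 was not called there, at 0.06 ± 0.15 with overlapping groups.

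FARS2 had 12.6, 11.2 and 13.2 CPM in 1 h fed cells with Torin1, against 3.21, 2.46 and 3.39 CPM without it, a log2 fold change of 2.03 ± 0.20 (adjusted p = 3.36e-10). HARS2 had 30.3, 35.3 and 34.0 CPM in starved cells with Torin1, against 8.55, 11.9 and 14.4 CPM without it, a log2 fold change of 1.51 ± 0.16. LARS2, the leucine enzyme, rose by 0.99 ± 0.10 on the log2 scale in starved cells, where it had 69.7, 77.7 and 74.2 CPM with Torin1 against 33.6, 33.3 and 44.9 CPM without it. Smaller rises in starved cells, between 0.34 and 0.66 on the log2 scale, were measured for SARS2 (serine), CARS2 (cysteine) and IARS2 (isoleucine). In 1 h fed cells SARS2 rose by 0.34 ± 0.13 on the log2 scale. That call was lost without 1 h fed replicate 1 or 1 h fed Torin1 replicate 2 or 3 (adjusted p between 0.0561 and 0.106). The CARS2 call in 4 h fed cells, with a log2 fold change of 0.33 ± 0.11 and overlapping groups, was lost without 4 h fed replicate 1 or 4 h fed Torin1 replicate 2 or 3 (adjusted p between 0.0578 and 0.101).

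MARS2, EARS2, YARS2 and RARS2, the mitochondrial enzymes for methionine, glutamate, tyrosine and arginine, fell with Torin1 in all 3 states. MARS2 had 22.4, 17.8 and 21.8 CPM in 4 h fed cells with Torin1, against 61.0, 53.1 and 63.5 CPM without it, a log2 fold change of -1.52 ± 0.19 (adjusted p = 1.49e-06). EARS2 had 31.8, 33.7 and 32.0 CPM there with Torin1, against 93.7, 86.2 and 89.9 CPM without it, a log2 fold change of -1.47 ± 0.10. YARS2 had 31.1, 29.5 and 32.4 CPM with Torin1, against 90.1, 80 and 78 CPM without it, a log2 fold change of -1.42 ± 0.11. For all 3 genes every Torin1 library lay below every library without Torin1.

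RARS2 had 29.8, 25.8 and 23.0 CPM in 4 h fed cells with Torin1, against 39.0, 40.5 and 33.0 CPM without it, a log2 fold change of -0.51 ± 0.14. LARS2 also fell in 4 h fed cells, by 0.32 on the log2 scale (SE 0.10), with 70.8, 62.9 and 69.7 CPM with Torin1 against 86.2, 75.0 and 92.0 CPM without it. That call was lost without 4 h fed replicate 3 (adjusted p = 0.0508) and without 4 h fed Torin1 replicate 2 (adjusted p = 0.0516). PARS2 (proline) changed sign between states, with log2 fold changes of -0.46 ± 0.14 in starved and 0.70 ± 0.14 in 4 h fed cells. NARS2 (asparagine) and WARS2 (tryptophan) were called in 1 h fed cells and in neither other state, at -0.25 ± 0.10 and 0.39 ± 0.09, and neither had a called interaction of Torin1 with feeding. The NARS2 call was lost without 1 h fed replicate 2 or 3 or 1 h fed Torin1 replicate 2 or 3 (adjusted p between 0.0515 and 0.109).

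**Figure D3:**
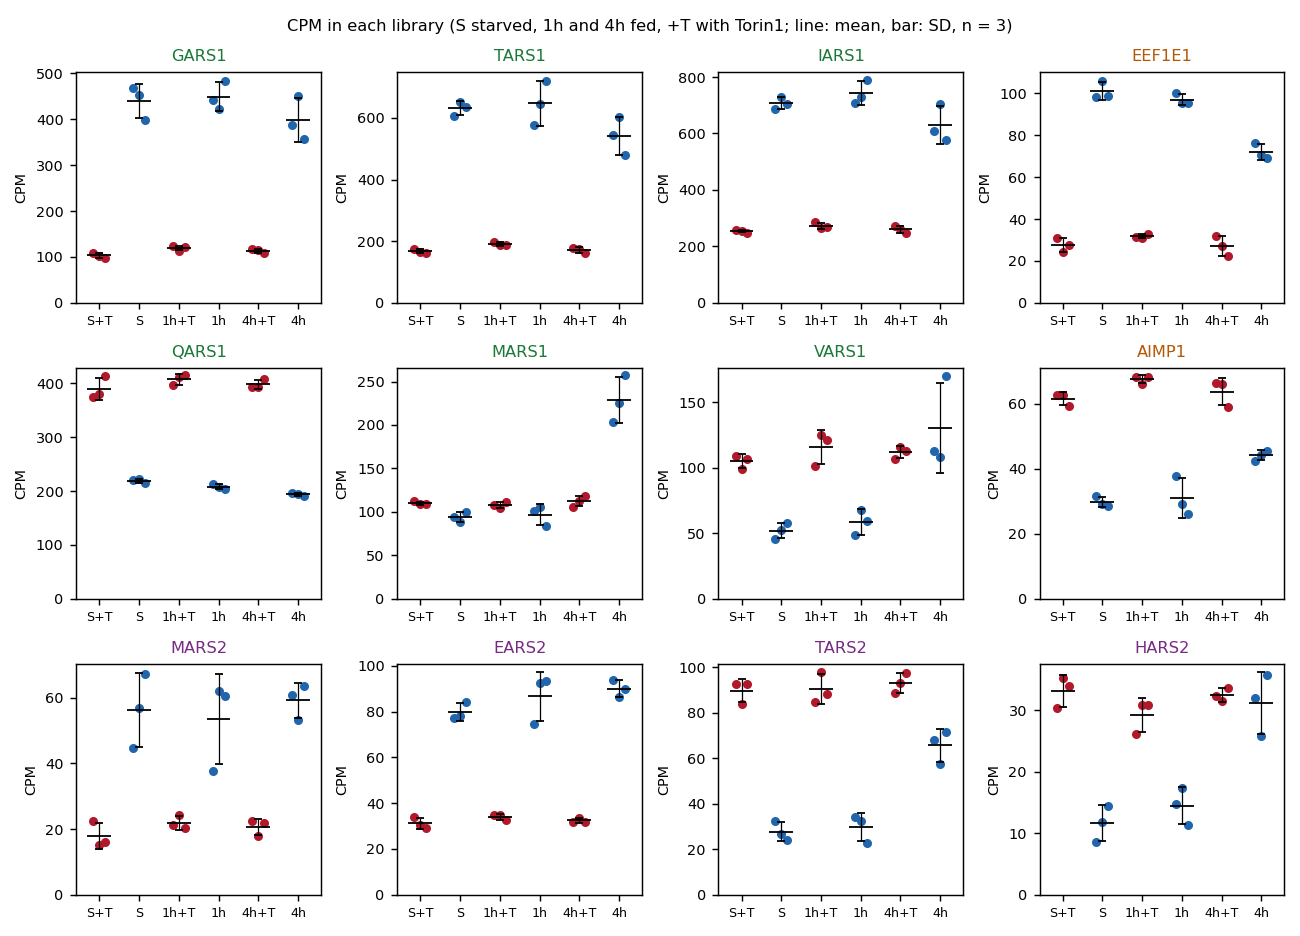
CPM of 12 of the genes in every library (points), with the mean (line) and SD (bar) of each group of 3, red with and blue without Torin1; S, 1h and 4h are starved cells and cells fed for 1 h and 4 h. GARS1, TARS1, IARS1, EEF1E1, MARS2 and EARS2 are low in every Torin1 group, QARS1 and AIMP1 are high there, and MARS1, VARS1, TARS2 and HARS2 are higher in 4 h fed than in starved cells only without Torin1.

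For 13 amino acids the cytosolic and the mitochondrial enzyme could be paired by symbol. The cytosolic gene had the lower log2 fold change with Torin1 in 11 of the 13 pairs in each of the 3 states, with a median difference of -1.35 log2 units in starved cells, -1.37 after 1 h and -0.70 after 4 h of feeding. In starved cells 6 pairs had a cytosolic gene that fell beside a mitochondrial gene that rose. TARS1 and TARS2 lay furthest apart, at -1.91 and 1.70, a difference of -3.61. MARS1 and MARS2 were the other way round, at 0.22 and -1.65, and YARS1 and YARS2 both fell, at -1.23 and -0.95. The enzymes for glutamate, proline and phenylalanine have no such symbol pair and were not counted. In starved cells EPRS1 had -0.54, against -1.35 for EARS2 and -0.46 for PARS2. FARSA and FARSB had -0.34 and 0.61 there, against 1.53 for FARS2.

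Levels per transcript length put the enzymes on a scale that compares genes. They are isoform counts per kb of transcript, scaled to the same total in every library. The 19 cytosolic enzymes summed to 2500 ± 37.6 in starved cells with Torin1 and 3881 ± 77 in starved cells without it (SD, n = 3 each), and the 16 mitochondrial enzymes to 689 ± 30 with Torin1 and 528 ± 22.8 without it. The ratio of the cytosolic to the mitochondrial sum was 3.63 ± 0.144 in starved cells with Torin1, against 7.36 ± 0.438 without it. In 1 h fed cells the ratio was 3.86 ± 0.123 with Torin1 and 7.07 ± 0.293 without it, and in 4 h fed cells 3.77 ± 0.181 with Torin1 and 5.88 ± 0.416 without it. The libraries with and without Torin1 did not overlap in any state, but 3 libraries against 3 cannot reach 0.05 in an exact two-sided permutation test. In starved cells without Torin1 the cytosolic genes spanned a mean of 22.5 for FARSB to 766 for SARS1 on this scale, and the mitochondrial genes 4.21 for FARS2 to 137 for IARS2.

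**Figure D4:**
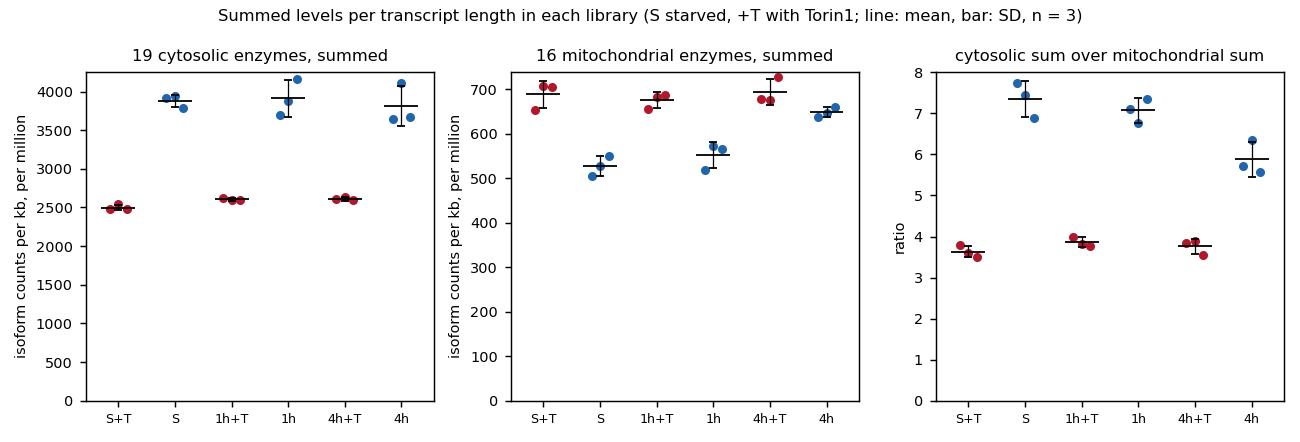
Summed level per transcript length of the 19 cytosolic enzymes (left), of the 16 mitochondrial enzymes (middle) and their ratio (right) in every library, with group mean and SD, red with and blue without Torin1. The ratio is between 3.51 and 4 in the Torin1 libraries and between 5.56 and 7.74 in the others.

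The promoters were read for the composite element of ATF4 and C/EBP factors, searched as TGATGNAA on either strand (TTNCATCA on the other) in windows of 250 bases before to 50 bases after a start site, from RefSeq on GRCh38.p14. Of the 16 cytosolic enzyme genes with a window, 7 held a match (43.8%), as did 1 of the 14 mitochondrial genes (7.14%) and 0 of the 3 subunits, against 4.46% of the 27305 genes in the table and 3.62% of its 35116 windows. VARS1, VARS2, LARS1, AARS2 and YARS1 were not in the table. The matches are shown to let the reader see the letters and their place; they are written 5′ to 3′ on the strand of the gene, cut at 30 bases after the start site, with the match in capitals.
TARS1 (chr5:33440921-33440994, plus strand): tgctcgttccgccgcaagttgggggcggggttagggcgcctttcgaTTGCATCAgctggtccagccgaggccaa
GARS1 (chr7:30594799-30594898, plus strand): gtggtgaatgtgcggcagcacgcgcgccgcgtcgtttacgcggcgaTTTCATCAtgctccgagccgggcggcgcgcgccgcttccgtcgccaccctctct
IARS1 (chr9:92293668-92293756, minus strand): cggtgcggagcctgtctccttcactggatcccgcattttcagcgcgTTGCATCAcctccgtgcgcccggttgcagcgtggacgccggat
CARS1 (chr11:3057394-3057471, minus strand): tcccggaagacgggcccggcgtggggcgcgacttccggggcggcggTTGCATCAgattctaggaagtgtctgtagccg
YARS2 (chr12:32756041-32756140, minus strand): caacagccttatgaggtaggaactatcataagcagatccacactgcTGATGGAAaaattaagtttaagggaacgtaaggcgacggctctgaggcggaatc
MARS1 (chr12:57488018-57488097, plus strand): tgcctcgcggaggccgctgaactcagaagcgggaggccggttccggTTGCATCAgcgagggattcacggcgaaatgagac
AARS1 (chr16:70289640-70289739, minus strand): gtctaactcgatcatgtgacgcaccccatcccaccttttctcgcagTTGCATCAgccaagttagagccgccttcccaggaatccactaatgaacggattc
NARS1 (chr18:57621807-57621868, minus strand): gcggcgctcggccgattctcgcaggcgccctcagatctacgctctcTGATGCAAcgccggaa
The match began 3 bases into the transcript in TARS1, 15 bases into it in NARS1, 33 bases before the start in GARS1 and 13 bases before it in IARS1, and it spanned the start in CARS1 and MARS1. In AARS1 it began 187 bases before the start and in YARS2 197 bases before it. TARS1, GARS1, IARS1, CARS1, NARS1 and YARS2 fell with Torin1 in all 3 states. AARS1, which also held a match, had log2 fold changes of 0.39 ± 0.08 in starved, 0.43 ± 0.08 in 1 h fed and -0.01 ± 0.08 (not called) in 4 h fed cells. MARS1, likewise with a match, had 0.22 ± 0.09 in starved cells (the call that single libraries removed), 0.15 ± 0.09 (not called) after 1 h and -1.03 ± 0.09 after 4 h of feeding. The cytosolic EPRS1, FARSA, HARS1, KARS1, RARS1 and SARS1, the mitochondrial EARS2, MARS2 and RARS2 and the subunits AIMP2 and EEF1E1 also fell in all 3 states and held no match in these windows.

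Genes of amino acid supply and other genes, such as DDIT3, TRIB3 and STC2, that are known or proposed ATF4 targets were listed together with ATF4 itself. Of the 34, 33 were tested, and with Torin1 31 of them fell in starved cells (median log2 fold change -1.58), 32 after 1 h (-1.44) and 31 after 4 h of feeding (-1.37). Over all genes tested, 29.6%, 29.9% and 28.6% fell in these states in that order. PSAT1, of serine synthesis, averaged 73.9 CPM in 4 h fed cells with Torin1 and 363 CPM without it (log2 fold change -2.29 ± 0.08). ASNS, asparagine synthetase, averaged 49 and 314 CPM in the same groups (-2.68 ± 0.10), the amino acid transporter SLC7A5 85.5 and 605 CPM (-2.82 ± 0.10) and the secreted glycoprotein STC2 32.4 and 178 CPM (-2.45 ± 0.09). ATF4 mRNA had a log2 fold change of -0.79 ± 0.07 in 4 h fed cells. The exception that rose was ATF5, in starved cells, by 0.65 on the log2 scale.

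Other genes that handle mitochondrial tRNA and translation moved less uniformly: of 24 tested, 6 rose and 14 fell in starved cells (median -0.34) and 2 rose and 14 fell in 4 h fed cells (median -0.55). Over all genes, 33.9% rose and 29.6% fell in starved cells, and 27.4% rose and 28.6% fell in 4 h fed cells. The tRNA-modifying enzyme TRMU averaged 37.9 CPM in 4 h fed cells with Torin1 and 88.5 CPM without it (-1.22 ± 0.10), and TRNT1, which adds the CCA end to tRNA, 13.1 and 35.4 CPM (-1.44 ± 0.13). TRMT10C, a subunit of mitochondrial RNase P, and MTRF1L, a mitochondrial release factor, had log2 fold changes of -1.16 ± 0.11 and -0.88 ± 0.10. Of 15 other cytosolic genes that handle tRNA or act in signalling by the kinase GCN2, 8 rose and 4 fell in starved cells, and 6 rose and 3 fell in 4 h fed cells. For these 15 genes, the counts that fell were close to or under the share over all genes, and those that rose were above it. XPOT, the exporter of tRNA from the nucleus, averaged 135 CPM in 4 h fed cells with Torin1 and 411 CPM without it (-1.61 ± 0.08). IMPACT, which restrains the kinase GCN2, DTD1, which removes D-amino acids from tRNA, and the elongation factor subunit EEF1G rose, by 1.43 ± 0.10, 0.97 ± 0.11 and 0.57 ± 0.07.

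Feeding for 1 h left the synthetase genes without a called change. None of the 38 was called in 1 h fed against starved cells, where 0.646% of all genes were called; 1 gene had an unadjusted p under 0.05, and DESeq2's Wald test and limma-voom also called 0. After 4 h of feeding without Torin1, 17 genes rose and 7 fell relative to starved cells, where 23.2% of all genes rose and 19.1% fell. By class, 8 of the 16 mitochondrial genes rose and 2 fell (median 0.37), 7 of the 19 cytosolic genes rose and 4 fell (median -0.04), and AIMP1 and AIMP2 rose while EEF1E1 fell. Against 1 h fed cells, 16 genes rose and 7 fell at 4 h, where 21.7% of all genes rose and 18.1% fell. In both comparisons the count that fell was close to the share over all genes. Of the falls against 1 h fed cells, TARS1, NARS1, IARS1 and RARS2 were lost without 4 h fed replicate 3 (adjusted p 0.0745 to 0.113). The rises of HARS1, SARS2 and FARSA there were also lost when a single library was left out. These comparisons with starved cells use the same 3 starved libraries as the comparison of Torin1 in starved cells, so like values in both are not independent.

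HARS2 had the largest change with 4 h of feeding, at 32.0, 25.8 and 35.7 CPM in 4 h fed cells, against 8.55, 11.9 and 14.4 CPM in starved cells (log2 fold change 1.42 ± 0.16, adjusted p = 1.55e-08). VARS1 had 113, 108 and 170 CPM in 4 h fed cells, against 45.8, 52.7 and 57.6 CPM in starved cells (1.33 ± 0.15). MARS1 had 204, 225 and 257 CPM, against 93.9, 88.7 and 99.8 CPM (1.28 ± 0.09). The fed and starved libraries of these 3 genes did not overlap, and the spread of VARS1 in fed cells came from replicate 3.

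TARS2 had 68.1, 57.4 and 71.6 CPM in 4 h fed cells, against 32.4, 26.7 and 24.1 CPM in starved cells (log2 fold change 1.25 ± 0.12). VARS2 and AARS2 rose by 1.20 ± 0.15 and 1.17 ± 0.11, and LARS2 and FARS2 by 1.18 ± 0.10 and 1.02 ± 0.20. PARS2 was the mitochondrial gene with the clearest fall, at 14.6, 12.6 and 16.2 CPM in 4 h fed cells, against 28.3, 24.8 and 24.3 CPM in starved cells (-0.83 ± 0.14, adjusted p = 1.31e-05). The other mitochondrial fall, RARS2 at -0.36 ± 0.13, was lost without starved replicate 1 (adjusted p = 0.169) or 4 h fed replicate 3 (adjusted p = 0.14). Of the 4 cytosolic falls, SARS1 had a log2 fold change of -0.44 ± 0.08, whereas TARS1, NARS1 and QARS1 lay between -0.22 and -0.18. The number of cytosolic genes that fell was 1 when starved replicate 2, 4 h fed replicate 1 or 4 h fed replicate 3 was left out, 2 when starved replicate 3 was, and 7 when 4 h fed replicate 2 was.

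With Torin1 present, no synthetase gene was called at either feeding time. At 1 h the count was 0 of 38, where 0.402% of all genes were called, with 4 genes at an unadjusted p under 0.05 and 0 called by DESeq2 or limma-voom. At 4 h it was 0 of 38, where 1.8% of all genes were called, with 4 genes at an unadjusted p under 0.05; limma-voom called 0, and DESeq2 called CARS1. The log2 fold changes at 4 h with Torin1 lay between -0.17 and 0.32, with standard errors up to 0.20, whereas those without Torin1 lay between -0.83 and 1.42.

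The difference between the 4 h feeding change with Torin1 and that without it was tested as an interaction, and 20 of the 38 genes passed: 15 with a lower feeding change under Torin1 and 5 with a higher one, where 16% and 9.74% of all genes passed in those directions. Among these 20 were 10 mitochondrial enzymes, 8 of them lower and 2 higher, 7 cytosolic enzymes, 5 lower and 2 higher, and all 3 subunits. HARS2 had the lowest value, -1.44 ± 0.22 (adjusted p = 5.27e-06): the feeding change was -0.03 ± 0.14 with Torin1 and 1.42 ± 0.16 without it. MARS1 had 0.03 ± 0.09 with Torin1 and 1.28 ± 0.09 without it, an interaction of -1.25 ± 0.13. PARS2 had the highest value, 1.15 ± 0.19, from 0.32 ± 0.13 with Torin1 and -0.83 ± 0.14 without it. The levels behind these values differed. In starved and 4 h fed cells, HARS2 averaged 33.2 and 32.5 CPM with Torin1, against 11.6 and 31.2 CPM without it. MARS1 averaged 110 and 112 CPM with Torin1, against 94.2 and 229 CPM without it. PARS2 averaged 18.7 and 23.4 CPM with Torin1, against 25.8 and 14.5 CPM without it. At 1 h the interaction called 0 of the 38 genes, where 0.067% of all genes passed, 1 gene had an unadjusted p under 0.05, and DESeq2 and limma-voom called 0.

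**Figure D5:**
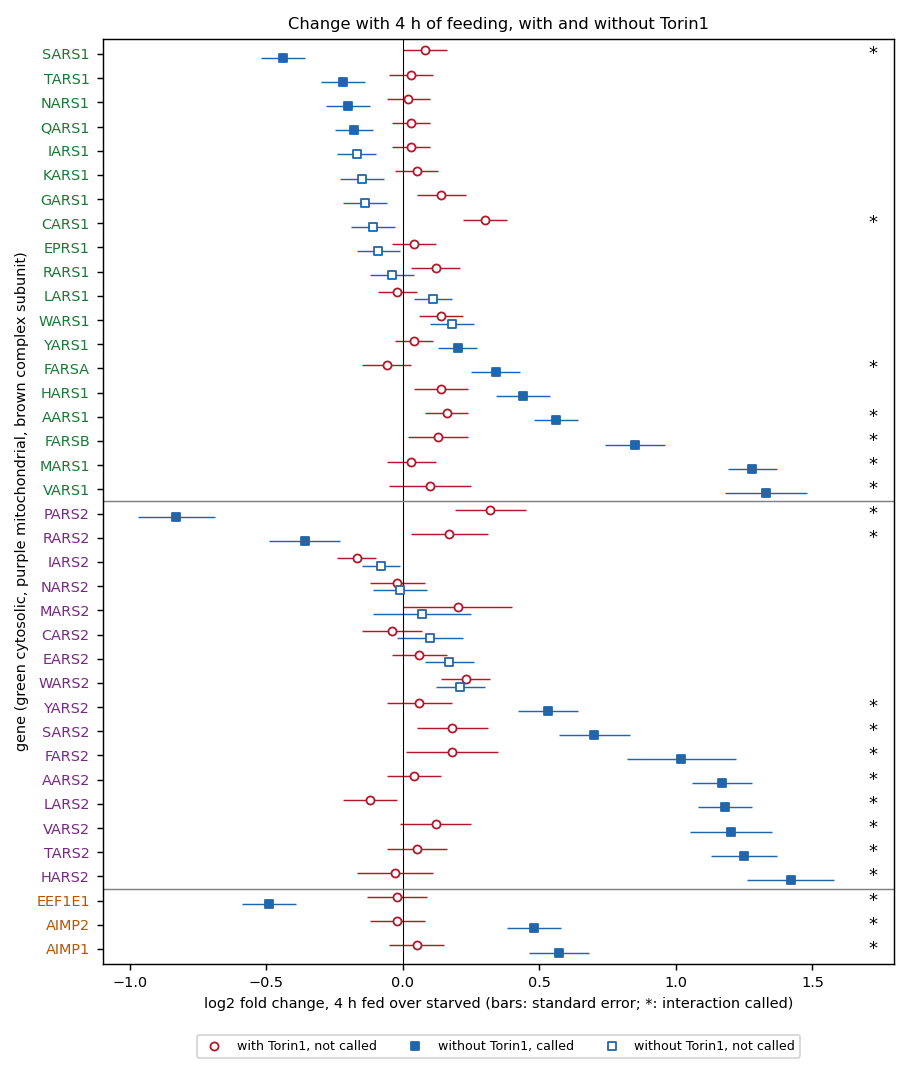
Log2 fold change of each gene after 4 h of feeding relative to starved cells, with Torin1 (red circles) and without it (blue squares; filled where the adjusted p was under 0.05); bars show the standard error and asterisks mark the 20 genes with a called interaction. The red circles lie between -0.17 and 0.32 and the blue squares spread from -0.83 to 1.42.

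The isoform table gave 33 of the 38 genes at least 2 isoforms to test for a change in relative use. HARS1 was called with Torin1 in starved cells, FARSA, HARS1 and WARS1 in 1 h fed cells and HARS1 in 4 h fed cells, where 5.94%, 5.9% and 4.05% of the 10698 genes tested were called. With 4 h of feeding 0 of the 33 were called, where 1.47% of all genes were called and 5 members had an unadjusted p under 0.05. These counts moved with single libraries: between 0 and 2 genes were called in starved cells (0 without starved Torin1 replicate 1 or 3), 1 in 1 h fed cells without any single one of the 1 h fed Torin1 replicates, and between 0 and 2 in 4 h fed cells (0 without 4 h fed replicate 2 or 3 or 4 h fed Torin1 replicate 1 or 2).

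In HARS1 the main isoform, HARS-207, was at 69.8 ± 6.07 CPM in starved cells with Torin1 and 64.5 ± 4.06 CPM without it, whereas the minor coding isoform HARS-202 was at 0, 0.344 and 0 CPM with Torin1, against 7.31, 7.56 and 9.62 CPM without it. KARS1 was not called for isoform use. Its second isoform, KARS-202, encodes the mitochondrial form, and its share was taken of the sum of KARS-202 and the main isoform KARS-201, without the minor isoforms. That share was 16.1%, 13.3% and 12% in starved cells with Torin1, against 12.8%, 7.64% and 9.57% in those without it, and these ranges overlapped.

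The sources used here do not state whether counting used strand, so reads of genes that overlap on opposite strands cannot be told apart. In GENCODE release 29, 18 of the 38 genes have exons that overlap another gene on the opposite strand and 7 on the same strand. HARS1 and HARS2 overlap each other on opposite strands, and their values are uncertain in that stretch. MARS1 overlaps DDIT3, which averaged 174 counts against 1480 for MARS1 over the 18 libraries, and EARS2 overlaps UBFD1 and AIMP2 overlaps EIF2AK1, both with more counts than the synthetase gene. DDIT3 averaged 6.45 CPM in starved cells with Torin1 and 35.8 CPM without it (log2 fold change -2.46 ± 0.24). It averaged 8.62 CPM in 4 h fed cells with Torin1 and 10 CPM without it (-0.22 ± 0.25, not called). The part of overlapping reads in the values of these genes was not tested.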

How the data were processed

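The gene table and the isoform table hold expected counts, that is, read counts estimated by RSEM, as deposited by the authors; STAR (2-pass), RSEM and DESeq2 are named without versions, per the labels' protocols and the submitters' processing notes. The labels name a C. elegans build, whereas the identifiers are human, and the sources used here state no human build, annotation release or strand use. Counts were rounded, filtered with filterByExpr (minimum count 10), scaled by TMM and modelled in edgeR 4.0.16 (R 4.3.3) with 1 mean per group for the 6 groups (12 residual degrees of freedom, common biological coefficient of variation 10.6%). Quasi-likelihood F tests were adjusted by Benjamini-Hochberg over the 16414 genes and called at an adjusted p under 0.05, and p and SE come from that fit. Isoform use was tested with diffSpliceDGE on 48658 isoforms. Self-tests were run on simulated counts. A count of 0 allows up to 0.219 to 0.285 CPM (3 counts, counting error only). Replicates differed by more than sampling noise.

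Per-length levels divide isoform counts by isoform length in GENCODE release 29, which matched 205883 of 227368 isoforms, or 98.9% of isoform counts. The quotients of the matched isoforms were then scaled to the same total in every library. The members, classes, lists and the rule for genes given by library were chosen with earlier results of these data known. That rule took the 8 called members with the largest absolute log2 fold change and a mean of at least 5 CPM in each Torin1 comparison and in 4 h feeding, members against the majority of their class in 4 h fed cells, the subunits, GARS1 and KARS1, and the 4 called genes with the smallest p of each other list. Alternatives were other scalings (DESeq2 1.42.0 size factors, total counts), filters, tests (DESeq2, limma-voom 3.58.1), libraries in the fit, a replicate block and each library left out.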

Additional observations from a re-analysis of the deposited data

Results flagged for a closer look

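The 4 h feeding change differed between cells with Torin1 and cells without it for 20 of the 38 genes, by edgeR's test of the interaction (adjusted p under 0.05), and the values below are that difference in log2 units, with Torin1 minus without. Among the mitochondrial enzymes it was lower under Torin1 for HARS2 (-1.44), LARS2 (-1.30), TARS2 (-1.20), AARS2 (-1.12), VARS2 (-1.08), FARS2 (-0.83), SARS2 (-0.52) and YARS2 (-0.47), and higher for PARS2 (1.15) and RARS2 (0.53). Among the cytosolic enzymes it was lower for MARS1 (-1.25), VARS1 (-1.23), FARSB (-0.72), AARS1 (-0.39) and FARSA (-0.39), and higher for SARS1 (0.51) and CARS1 (0.40). Of the complex subunits, AIMP1 had -0.52, AIMP2 -0.51 and EEF1E1 0.47.

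The calls of 7 of these genes were lost when a single library was left out. AARS1 was lost without starved replicate 3 or 4 h fed replicate 3 (adjusted p 0.0519 and 0.0525), EEF1E1 without starved replicate 2, replicate 2 of starved Torin1 or replicate 1 of 4 h fed Torin1 (0.0547 to 0.114), and FARS2 without starved replicate 3, replicate 1 of starved Torin1 or replicate 2 of 4 h fed Torin1 (0.0505 to 0.0619). FARSA was lost without starved replicate 1 or 2, 4 h fed replicate 3, replicate 1 of starved Torin1 or replicate 2 of 4 h fed Torin1 (0.0502 to 0.0802), and YARS2 without starved replicate 1 or 2, 4 h fed replicate 1, replicate 3 of starved Torin1 or replicate 2 of 4 h fed Torin1 (0.0547 to 0.1). SARS2 was lost without any single starved replicate, 4 h fed replicate 1 or 3, replicate 3 of starved Torin1 or replicate 1 or 2 of 4 h fed Torin1 (0.0537 to 0.167), and RARS2 without starved replicate 1 or 2, 4 h fed replicate 1 or 3, replicate 1 or 3 of starved Torin1 or replicate 1 or 2 of 4 h fed Torin1 (0.051 to 0.134). The comparisons of Torin1 in 4 h fed cells and of 4 h feeding use the same 4 h fed libraries as this difference.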

How the results depend on the processing

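No called log2 fold change of a member changed sign under any alternative run. Counts of called members, split by direction or class, moved by more than 1.5 times in some comparisons. The cases that follow are examples and not a full list. For 4 h against 1 h feeding, the falls of TARS1, NARS1, IARS1 and RARS2 were lost without 4 h fed replicate 3. For the interaction at 4 h, the calls of AARS1, FARSA, SARS2 and RARS2 were lost without that library. DESeq2's Wald test called 1 member, CARS1, for 4 h feeding under Torin1, against 0 in the main analysis. For 4 h feeding, the cytosolic genes that fell numbered 2 without the filter on low counts and between 1 and 7 with a library left out (main 4), and the mitochondrial genes that fell between 1 and 2 (main 2). With a library left out, isoform use was called for between 0 and 2 members for Torin1 in starved cells (main 1), between 1 and 3 in 1 h fed cells (main 3), between 0 and 2 in 4 h fed cells (main 1), and between 0 and 1 for 4 h feeding (main 0).

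Scaling by total counts moved the median log2 fold change of all genes with Torin1 by 0.14 in starved, 0.11 in 1 h fed and 0.16 in 4 h fed cells, and in 4 h fed cells the share of higher genes among those called was 62.6%, against 49% in the main analysis. For 1 h feeding under Torin1 that share was 44.3%, against 68.2%. HARS1 in starved, FARSA and NARS2 in 1 h fed and LARS2 in 4 h fed cells lost their Torin1 calls under that scaling, and MARS1 in starved cells under DESeq2 size factors (adjusted p = 0.092). Replicate numbers paired the libraries weakly at most. Correlations of same-numbered deviations ran from -0.108 to 0.162 (median 0.0383), and those of different-numbered deviations from -0.111 to 0.113 (median -0.02). With the replicate number as a block 35 members were called for Torin1 in starved cells, 35 after 1 h and 30 after 4 h of feeding, 24 for 4 h feeding and 20 for the interaction at 4 h. The causes were not tested. Depth limits FARS2 most among the members, at a mean of 3.02 CPM in 1 h fed cells.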
